A study of Mus musculus with 8 samples.

Results

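The genes described here are the 9 homeostatic microglia genes P2ry12, Gpr34, Cx3cr1, Csf1r, Tmem119, Fcrls, Siglech, Selplg and Sall1. The rule that picks them is their name, and each is a single row among the 31053 genes counted, so all 9 of 9 were found. The study measured single-cell RNA from the cortex of 8-week-old mice in 2 experiments, each a laminin knockout with its own wild-type (WT) control. Laminins are the sheet-forming proteins of the basement membrane around blood vessels. In the first experiment Lama4-/- mice, which carry no Cre in the labels, were compared with WT mice. Lama4 and Lama5 encode the laminin α4 and α5 chains. In the second, Tek-Cre:Lama5-/- mice were compared with a further set of WT mice; Tek-Cre is known to act in endothelial cells and also in part of the blood cell lineage. Each group was a pool of 3 brains taken after perfusion with cold PBS and was deposited as 2 libraries, so p-values measure only the spread between libraries, which may be technical. Both Lama4-/- deposits held identical counts and were used as 1 library, which leaves 7 libraries. The labels used here give no strain.

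Microglia are the resident macrophages of the brain parenchyma. In the healthy brain they carry a characteristic set of receptors and surface proteins that sense nucleotides, lipids, chemokines and growth factors, and this set is kept up by signals such as TGF-β together with the transcription factors PU.1 and Sall1. The level of these transcripts is widely used to tell microglia from perivascular macrophages (PVMs) and blood monocytes, and it is known to drop when microglia are activated or taken out of the tissue.

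Since the 9 genes share a cell type, the 250 bases before their start sites in RefSeq (GRCm38.p6) were searched for GGAAGT on both strands, the core letters recognised by PU.1 and other ETS factors. A window was at hand for 5 of 9 genes, and 4 of these 5 held a match, Sall1 in 1 of its 3 start sites. By window, 4 of 7 member windows held it, against 19.7% of all 32851 windows, and the longer GAGGAAGT, held by 2.44% of windows, was in none of the member windows. The Cx3cr1 window held no match. The stretches with the match are shown on the strand of the gene, with the 6 matching letters in capitals (ACTTCC is the same motif on the other strand). They are a description of these letters, not of a bound site. By GENCODE M21 the P2ry12 stretch also lies in an exon of a Med12l transcript on the plus strand, the Fcrls stretch runs into the first exon of Fcrls, the Sall1 stretch lies in an intron of Sall1, before a start site that RefSeq places within the gene, and the Siglech stretch is outside the gene.
P2ry12, chr3:59263019-59263048, minus, from 51 bases before the start: agctaacaagaaGGAAGTtccccagtgaca
Fcrls, chr3:87263582-87263611, minus, from 75 bases before the start: gacaactttgccACTTCCtttttttcctat
Siglech, chr7:55768016-55768045, plus, from 156 bases before the start: tgtgcaacaagcACTTCCcagtctgagcca
Sall1, chr8:89043025-89043054, minus, from 180 bases before the start: gcgcgggagttaGGAAGTtcgccgctcgcc

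The positions of the 9 genes in GENCODE M21 on GRCm38 are as follows, all of them protein-coding. P2ry12 lies at chr3:59216272-59262871 (minus strand) and Fcrls at chr3:87250758-87263738 (minus). Tmem119 lies at chr5:113793729-113800516 and Selplg at chr5:113818536-113832644, both on the minus strand. Siglech is at chr7:55768178-55778925 (plus), Sall1 at chr8:89027235-89044162 (minus) and Cx3cr1 at chr9:119901616-120069879 (minus). Csf1r is at chr18:61100598-61132149 (plus) and Gpr34 at chrX:13632089-13640858 (plus).

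The 7 libraries held 35479306 to 48314458 unique molecular identifiers (UMIs, 1 per captured RNA molecule), and 47239 cells remained after filters. Cell types were named from marker genes that do not include the 9, and the 9 were also left out of the genes used for clustering. Microglia-like cells numbered 1484 and 1431 in the Lama4 WT libraries, 1327 in Lama4-/-, 615 and 577 in the Lama5 WT libraries, and 1042 and 975 in Tek-Cre:Lama5-/-. All 8 naming markers of microglia were above 0 in these cells in every library, which is no check of the class because the same markers named it. Those of PVMs summed to 23.1 to 49.4 CPM (the UMIs of a gene scaled to the usual fixed total of all UMIs of that cell type in that library). PVM-like cells numbered 53 to 132 per library, monocyte-like cells (a class that also takes in dendritic cells) 28 to 39 in the Lama4 experiment and 2 to 12 in the Lama5 experiment. The larger monocyte-like cluster, M12, had Prg2 and Prtn3 among its leading genes. Neither is a naming marker of the class, which may thus hold further cell types. Pairs of libraries shared 5 to 24 cell barcodes. As a check of the labels, Lama4 had 1504 and 1404 UMIs over all barcodes in its WT libraries and 2 in Lama4-/-. Lama5 was at 32.9 and 32.8 CPM over all barcodes in WT and at 23.0 and 25.1 CPM in Tek-Cre:Lama5-/-. In the microglia-like cells of the Lama5 experiment, Lama5 had 1 UMI in each WT library and 0 in each knockout library.

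The 9 genes were abundant in microglia-like cells in all 7 libraries. Values are given in the order Lama4 WT 1 and 2, Lama4-/-, Lama5 WT 1 and 2, Tek-Cre:Lama5-/- 1 and 2, as CPM without further scaling. Libraries prepared with poly(A) priming at the 3′ end count each transcript at about 1 place, so CPM was not divided by gene length.

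Among the receptors, Csf1r, the receptor for the growth factors CSF1 and IL-34 on which microglia depend for survival, was at 3047, 2970, 3028, 2495, 2422, 2070 and 2008 CPM. Cx3cr1, the receptor for the neuronal and endothelial chemokine fractalkine, was at 2402, 2348, 2439, 2355, 2354, 1793 and 1769 CPM. P2ry12, the ADP receptor that steers microglial processes toward injury, was at 2304, 2341, 2575, 2021, 1996, 1938 and 1843 CPM. For Cx3cr1 the 2 Tek-Cre:Lama5-/- libraries were well below the other 5, which lay within a narrow range; for P2ry12 they were only slightly below their own WT. Gpr34, a receptor for the lipid lysophosphatidylserine, was at 1326, 1354, 1586, 1055, 1082, 1052 and 1055 CPM, with the 4 libraries of the Lama5 experiment nearly level.

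Among the other surface proteins, Selplg, which encodes the selectin ligand PSGL-1, was at 2180, 2153, 2416, 1382, 1483, 1088 and 1125 CPM. Fcrls, an Fc receptor-like scavenger molecule found in mouse, was at 2004, 2074, 2114, 1581, 1532, 1263 and 1297 CPM. Tmem119, a transmembrane protein used as a microglial marker, was at 1402, 1429, 1685, 1199, 1183, 992 and 980 CPM. These 3 genes fell into the same order of libraries, with the Lama4 experiment above the Lama5 WT and the Lama5 WT above its knockout. The same order held for Csf1r and P2ry12 above and for Siglech and Sall1 below. Siglech, a sialic acid-binding lectin, was at 1352, 1340, 1376, 1308, 1299, 1124 and 1132 CPM. Sall1, the zinc finger transcription factor that maintains microglial identity, was the lowest of the 9 at 179, 179, 200, 149, 156, 119 and 109 CPM. Its 95% counting interval (exact Poisson, counting error only) in the last library ran from 97.1 to 123 CPM.

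**Figure D1:**
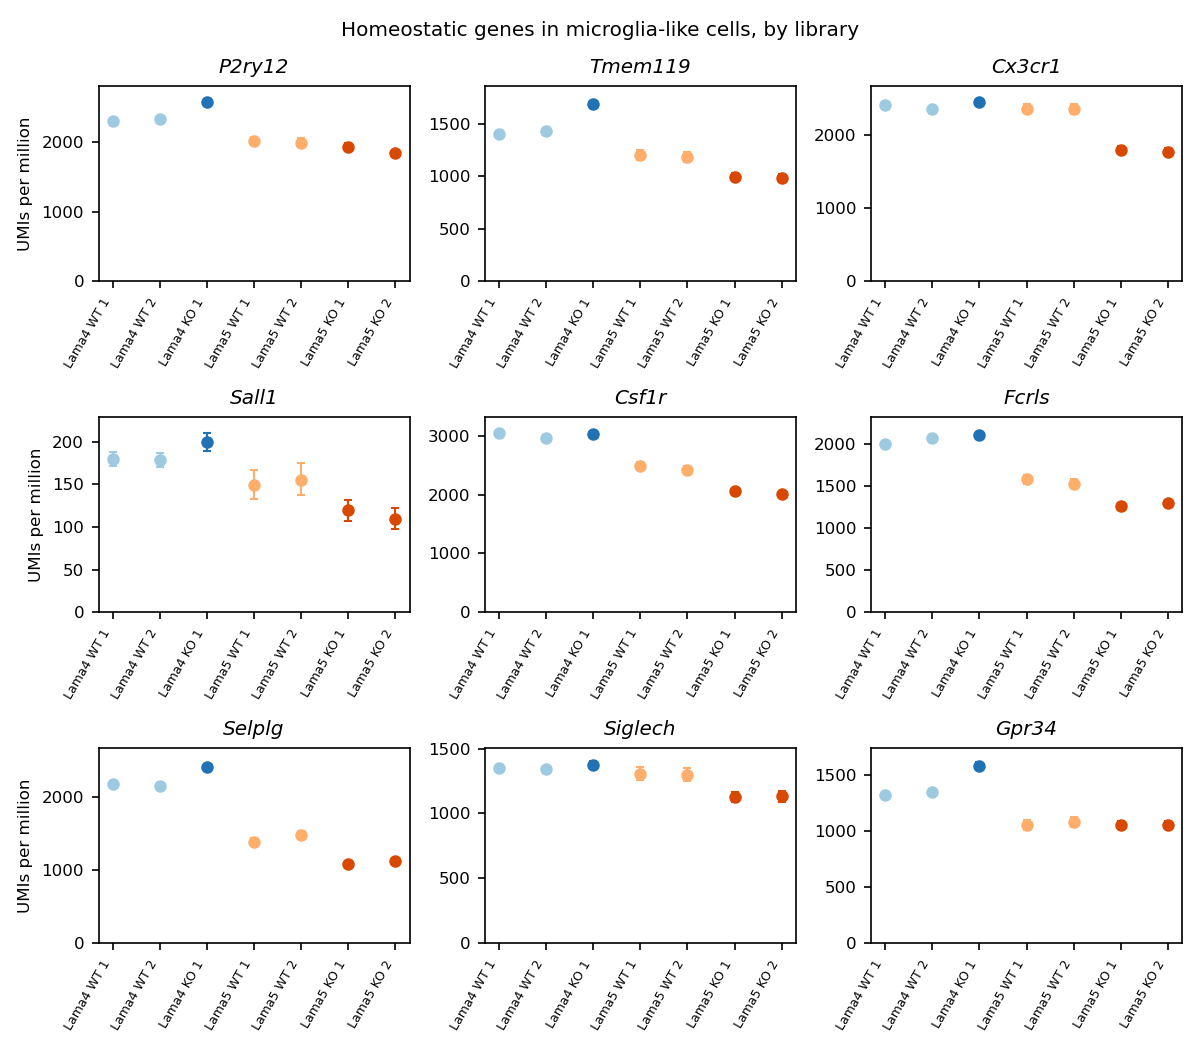
Level of each of the 9 genes in microglia-like cells, in CPM, in each of the 7 libraries. Each point is 1 library with its 95% counting interval; Cx3cr1, Selplg, Fcrls, Tmem119, Csf1r, Siglech, Sall1 and, by a small margin, P2ry12 were lower in both Tek-Cre:Lama5-/- libraries than in both of their WT libraries on this unscaled measure.

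The comparison with PVMs asks how far these genes separate parenchymal microglia from the macrophages of the vessel wall. Of the 9 genes, 8 were higher in microglia-like cells, and for these 8 the level was higher in 7 of 7 libraries. Tmem119 and Sall1, which had few UMIs in PVM-like cells, passed the filter on low counts with the help of microglia-like cells and so had to differ. Their calls therefore carry no weight. Over all 9785 genes tested, 24.1% were higher in microglia, 19.8% lower and 43.9% differed in either direction. The genes fell into 3 steps: Tmem119 and Sall1 in PVM-like cells were at 1.76% and 2.34% of the microglial mean, 5 genes were at 4.54% to 13.1%, and Csf1r and Fcrls at 61.5% and 92.5%. The test was edgeR's quasi-likelihood test on UMIs summed per cell type and library, with the library as a block and Benjamini-Hochberg adjustment.

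Tmem119 had 11, 5, 11, 2, 17, 0 and 2 UMIs in PVM-like cells, and 10 of the 17 in the second Lama5 WT library came from 1 cell. The summed counts gave a microglia to PVM ratio of 79.0 (95% counting interval 59.6 to 107). Sall1 had 7 UMIs in PVM-like cells over all libraries, with 3 libraries at 0, for a ratio of 67.0 (95% counting interval 32.5 to 167). No fitted difference is given for Tmem119 or Sall1. Selplg followed with a log2 difference of 4.55 (SE 0.19) and P2ry12 with 3.86 (SE 0.15). Siglech differed by 3.52 (SE 0.22), Cx3cr1 by 3.28 (SE 0.16) and Gpr34 by 2.96 (SE 0.14), all on the log2 scale.

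P2ry12 lay between 116 and 197 CPM in PVM-like cells and Gpr34 between 112 and 206 CPM. Cx3cr1 ranged more widely, from 133 to 389 CPM, with both extremes in the 2 Lama5 WT libraries. Across the 7 libraries PVM-like cells held 407 UMIs of P2ry12 and 48 of Tmem119, whereas microglia-like cells held 83644 and 50712. The genes were thus not in the same proportion in both cell types.

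Csf1r was at 1832, 1789, 1761, 1536, 1700, 1234 and 1234 CPM in PVM-like cells. It was higher in microglia-like cells in 7 of 7 libraries, with a log2 difference of 0.70 (SE 0.12, adjusted p = 2.7e-05 by edgeR). Fcrls was at 2135, 2034, 2131, 1146, 1497, 1100 and 929 CPM in PVM-like cells. It was higher in microglia-like cells in 5 of 7 libraries, and the difference of 0.15 did not pass the test (SE 0.12, adjusted p = 0.33 by edgeR, interval -0.08 to 0.38).

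**Figure D2:**
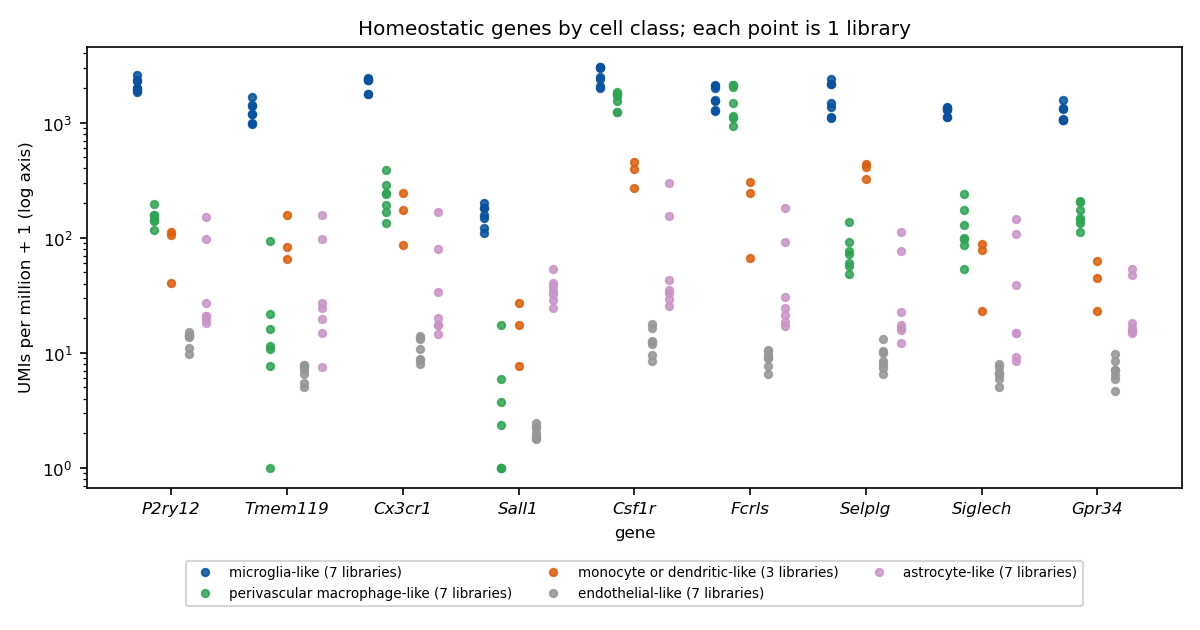
Level of each of the 9 genes, in CPM on a log axis, as CPM + 1, in microglia-like, PVM-like, monocyte-like (3 libraries of the Lama4 experiment), endothelial-like and astrocyte-like cells. Each point is 1 library. Fcrls overlaps between microglia-like and PVM-like cells, while Tmem119 and Sall1 in PVM-like cells lie far below microglia-like cells.

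Per cell, the pattern was the same after each cell was thinned to 1500 UMIs, which removes differences in depth. Microglia-like cells then showed a mean of 6.72 to 7.62 of the 9 genes, PVM-like cells 2.37 to 2.90, and endothelial-like cells, which should lack these genes, 0.09 to 0.17. At least 5 of the 9 genes were seen in 95% to 99.7% of microglia-like cells. Among PVM-like cells, Fcrls was seen in 75.0% to 93.7% and Csf1r in 78.0% to 94.2%, and the share of cells with P2ry12 was 12.5% to 28%. In endothelial-like cells P2ry12 was seen in 1.75% to 2.87% of cells. Tmem119 was seen in 0 to 1.05% of PVM-like cells in 6 libraries and in 6% in the second Lama5 WT library, against 0.92% to 1.30% of endothelial-like cells. Outside that library it was thus seen no more often than in endothelial-like cells. The level of background RNA was not estimated. Without thinning, P2ry12 was seen in 27.7% to 54.5% of PVM-like and 3.8% to 10.2% of endothelial-like cells, whose median depths were 2662 to 5725 and 2591 to 5912 UMIs.

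**Figure D3:**
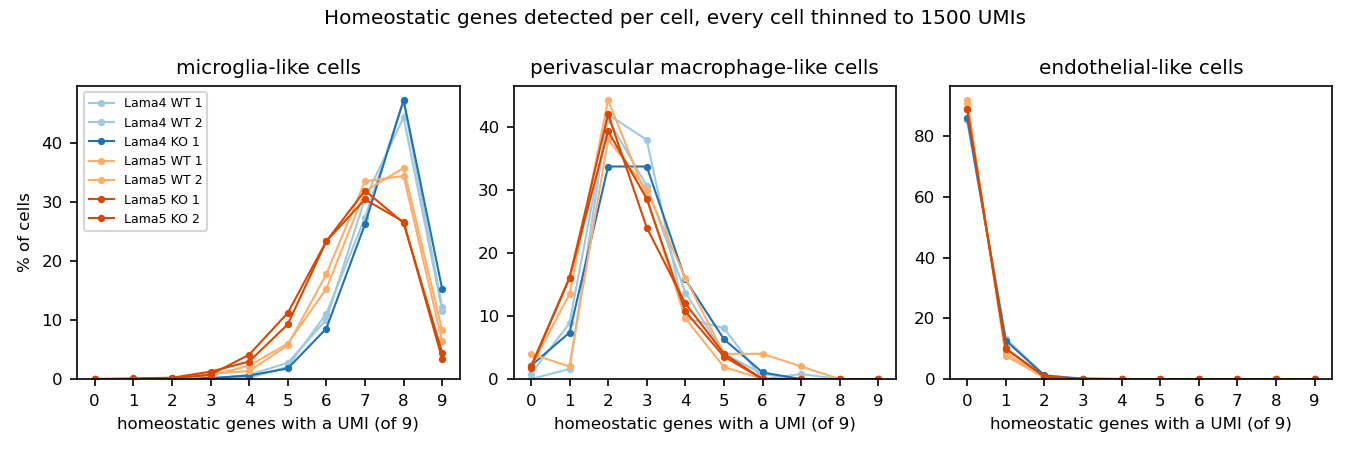
Share of cells, in percent, by the number of the 9 genes detected after thinning to 1500 UMIs, for microglia-like, PVM-like and endothelial-like cells by library. Lines join the points of 1 library. Microglia-like cells had a mean of 6.72 to 7.62 genes, with both Tek-Cre:Lama5-/- libraries (Lama5 KO) shifted toward fewer genes, and PVM-like cells had 2.37 to 2.90.

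Against monocyte-like cells all 9 genes were higher in microglia-like cells. This could be tested in the 3 libraries of the Lama4 experiment, where 23.0% of 11190 genes were higher in microglia, 20.7% lower and 43.6% differed in either direction. Gpr34 showed a log2 difference of 5.19 (SE 0.22), P2ry12 4.97 (SE 0.22), Siglech 4.61 (SE 0.24) and Tmem119 4.04 (SE 0.20). Cx3cr1, Fcrls and Csf1r followed at 3.99, 3.57 and 3.1, and Selplg had the smallest difference at 2.60 (SE 0.16, adjusted p = 1.8e-14 by edgeR). Sall1 had 17 UMIs in monocyte-like cells over the 3 libraries, against 5020 in microglia-like cells. As against PVM-like cells, its call carries no weight, and no fitted difference is given. Gpr34 had 45 UMIs in monocyte-like cells, so the size of its difference rests on few counts. The sizes depended on how cells were assigned: with the 9 genes among the clustering genes, which lets them set the classes, the median of the 9 moved from 3.99 to 5.29 and Gpr34 to 6.86. Selplg, which blood leukocytes use to roll on selectins, was at 325, 410 and 438 CPM in monocyte-like cells, and Csf1r at 270, 457 and 399 CPM. Single cells carried much of the remainder: 24 of 29, 16 of 30 and 32 of 48 Tmem119 UMIs in monocyte-like cells came from 1 cell in each library, as did 31 of 40 P2ry12 UMIs in the second WT library.

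Outside these classes the 9 genes were mostly low. Microglia-like cells held 87.8% to 93.8% of the summed UMIs of the 9 genes in kept cells. Sall1 was the exception. Its share in microglia-like cells was 87.6% to 90.4% in the Lama4 experiment but only 43.6% to 58.1% in the Lama5 experiment. Selplg was at 253 to 706 CPM in T or NK-like cells. Tmem119 was at 50.3 to 113 CPM in fibroblast-like cells, and Sall1 at 32.2 to 65.1 CPM in ependymal-like and 23.6 to 52.5 CPM in astrocyte-like cells. In astrocyte-like cells Csf1r ranged from 24.3 to 297 CPM, with the 2 highest values in the Tek-Cre:Lama5-/- libraries. Over the 14 classes, the level of P2ry12 followed the mean of the 9 with a Pearson r of 0.99, that of Selplg with 0.84, Tmem119 with 0.81 and Sall1 with 0.52. That mean includes each of these genes itself, which raises their r. Among genes outside the set, those most like the mean of the 9 were Trem2 (r = 0.97), a lipid receptor of microglia, Csf3r (0.97), Crybb1 and Il1a (0.96 each). Trem2 and Crybb1 were among the markers that named microglia-like cells, so their likeness was partly built in. Csf3r is a neutrophil marker, and the cluster that met the neutrophil markers was left unnamed and is not among the 14 classes. These correlations are over 14 class means that share libraries and depth, and describe likeness of pattern only.

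In microglia-like cells of Tek-Cre:Lama5-/- mice 7 of the 9 genes were lower than in their WT and none was higher. The background was wide: of 9514 genes tested, 5.73% were lower and 9.42% higher, 15.1% in either direction. The median log2 difference of the 9 genes was -0.19, against -0.01 over all genes tested. On values scaled by TMM, the 7 genes fell by 8.16% to 19.97%, and on unscaled CPM their means fell by 13.5% to 24.9%. Both knockout libraries lay below both WT libraries in 7 of the 9 on the scaled values, as did 26.6% of all genes, and in 8 on unscaled CPM, P2ry12 being the eighth, as did 36.2%. Both lay above both WT libraries for 1 gene of the 9, Gpr34, on the scaled values (26.7% of all genes) and for none on unscaled CPM (18.3%).

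Cx3cr1 fell from 2355 and 2354 CPM in WT to 1793 and 1769 CPM in the knockout, a log2 difference of -0.32 (SE 0.03, adjusted p = 2.9e-14 by edgeR). The WT libraries differed by 1 CPM and the groups did not overlap. Sall1 fell from 149 and 156 CPM to 119 and 109 CPM, also -0.32 but with a wider error (SE 0.09, adjusted p = 0.0043 by edgeR). Selplg fell from 1382 and 1483 CPM to 1088 and 1125 CPM, a log2 difference of -0.29 (SE 0.04, adjusted p = 5.3e-10 by edgeR).

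Smaller decreases were found for Fcrls (-0.20, SE 0.04, adjusted p = 9.7e-06 by edgeR), Tmem119 (-0.19, SE 0.04, adjusted p = 1.1e-04) and Csf1r (-0.18, SE 0.03, adjusted p = 5.8e-06). Siglech was lower by 0.12 on the log2 scale (SE 0.04, adjusted p = 0.014 by edgeR). P2ry12 did not pass the test: its log2 difference was -0.0008 (SE 0.03, adjusted p = 0.99 by edgeR), with an interval of -0.07 to 0.07. Gpr34 was at 0.07 (SE 0.04, adjusted p = 0.29 by edgeR), with an interval of -0.01 to 0.14. The genes were not tested against each other.

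The call for Siglech was lost with DESeq2 (adjusted p = 0.13) and without the first WT library (0.12), the first knockout library (0.15) or the second (0.091), and that for Sall1 with DESeq2 (0.12) and without the second WT (0.053) or second knockout library (0.14). With class totals left unscaled, the same 7 genes were lower, but genes over the whole table split into 551 higher and 957 lower instead of 896 and 545, and P2ry12 was at -0.09 (adjusted p = 0.069 by edgeR).

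**Figure D4:**
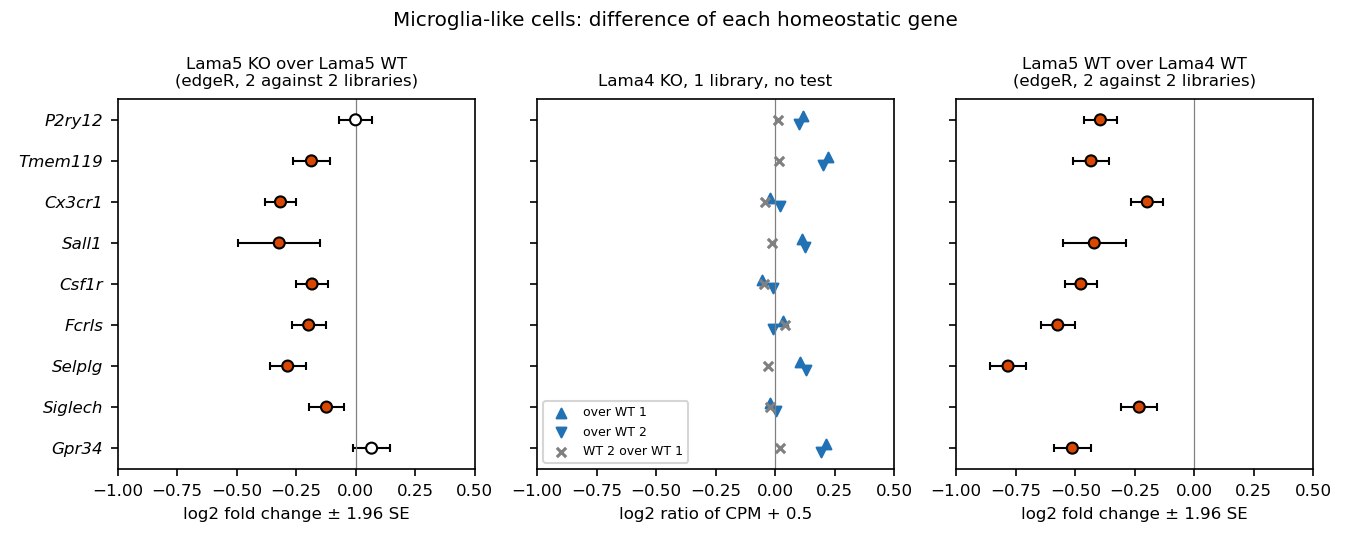
Log2 differences of each of the 9 genes in microglia-like cells: Tek-Cre:Lama5-/- over its WT (left), Lama4-/- over each of its WT libraries with no test (middle, crosses show the second WT library over the first), and Lama5 WT over Lama4 WT (right). Bars are 95% intervals from the SE of edgeR and filled points passed the test. On the left 7 genes lie below 0, and P2ry12 and Gpr34 (open points) did not pass.

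Several other measures moved with the same groups. Median UMIs per microglia-like cell were 3598 and 3311 in WT and 3093 and 2796 in the knockout, and the non-coding RNA Gm42418, which overlaps ribosomal RNA sequence, took 2.29% and 2.18% of UMIs in WT and 4.13% and 4.44% in the knockout. With Gm42418, mitochondrial and haemoglobin counts and Ttr left out, the same number of the 9 genes, 7, was called. In microglia-like cells the summed astrocyte markers were 252 and 234 CPM in WT against 149 and 160 CPM in the knockout, erythroid markers 471 and 464 against 74.1 and 68.3, and choroid plexus markers 16.4 and 16.1 against 150 and 130. Their part in the result was not tested.

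Microglia-like cells of the Lama5 experiment lay mainly in 4 sub-clusters, M0, M4, M5 and M6, whose shares were not alike in the groups. In M0, led by the chemokine genes Ccl4 and Ccl3, the same count of 7 genes was lower in knockout cells: Cx3cr1 by 0.37, Sall1 by 0.40, Selplg by 0.38 and Fcrls by 0.28 on the log2 scale. Of all 8472 genes tested in M0, 384 were lower and 632 higher. M4 held 14.3% and 13.7% of microglia-like cells in WT and 22.6% and 26.1% in the knockout. In M4 Cx3cr1 was lower (-0.31, adjusted p = 0.024 by edgeR) and Selplg, at -0.33, did not pass (adjusted p = 0.050). Of all 5862 genes tested in M4, 42 were lower and 67 higher. M5, with a median of 910.5 UMIs per cell, held 21% and 22.2% in WT and 13.6% and 11.6% in the knockout. No gene of the 9 passed the test in M5, where Cx3cr1 was at -0.54 (SE 0.12), Selplg at -0.52 (SE 0.13), Tmem119 at -0.51 (SE 0.13) and Csf1r at -0.48 (SE 0.11). In M6 none passed, with Cx3cr1 at -0.21 and Fcrls at 0.002. Cx3cr1 thus passed the test within M0 and within M4, each taken singly.

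**Figure D5:**
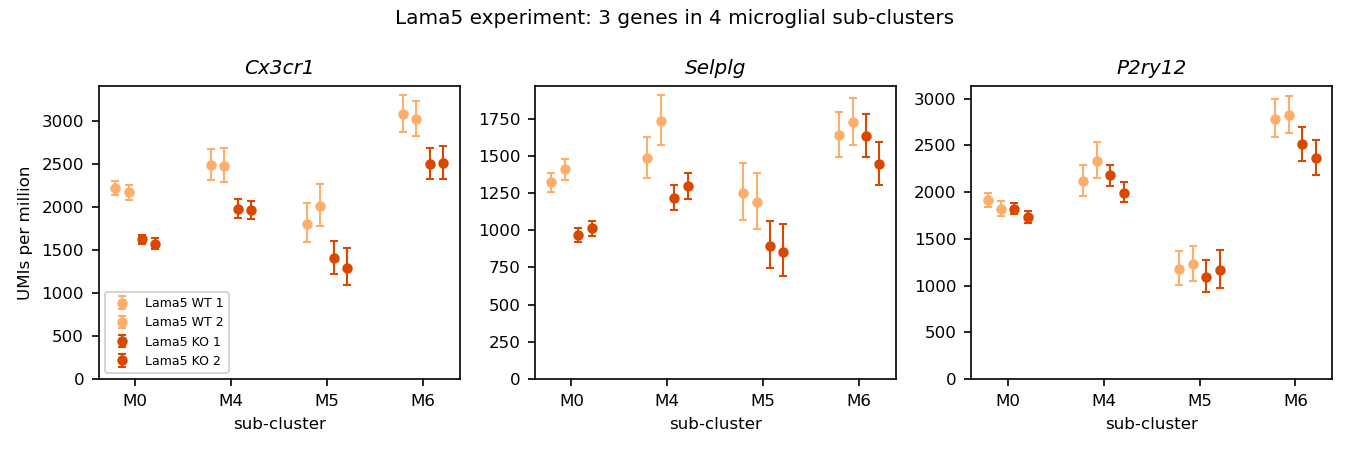
Level of Cx3cr1, Selplg and P2ry12, in CPM, in 4 sub-clusters of microglia-like cells of the Lama5 experiment. Each point is 1 library with its 95% counting interval. Cx3cr1 was lower in both Tek-Cre:Lama5-/- libraries (Lama5 KO) than in both WT libraries in each of the 4 sub-clusters.

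Cx3cr1, Selplg and Sall1 were also seen in a smaller share of knockout cells at equal depth. After thinning to 1500 UMIs, Cx3cr1 was seen in 95.7% and 94.3% of WT and in 89.5% and 89.2% of knockout microglia-like cells. Selplg was seen in 87.8% and 86.8% against 77.9% and 80.5%, and Sall1 in 22.7% and 18.7% against 13.5% and 13.3%. P2ry12 overlapped, with 91.1% and 88.8% against 90.8% and 89.4%. Thinning equalises total UMIs, so these shares are an unscaled measure, and the share of all genes that moved alike was not counted. It left out 131 of 615 and 138 of 577 WT cells below that depth, and 168 of 1042 and 153 of 975 knockout cells. Without thinning the shares were closer, with Cx3cr1 at 93.2% and 92.7% in WT and 92.4% and 92.0% in the knockout.

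Other gene lists in the same cells were examined beside the 9. Of 19 further homeostatic genes, 8 were lower and 1 higher, with a median of -0.04; Itgb5, an integrin subunit, fell by 0.44 and Abi3 by 0.40 on the log2 scale, Cd33 by 0.32 and Lpcat2 by 0.26. Of 12 regulators, 4 were higher and 1 lower. Spi1, which encodes PU.1, rose by 0.39, and the interferon-response factor Irf1 fell by 0.76 on the log2 scale. Of 14 disease-associated genes tested, 3 were higher and 1 lower, with Cd63 at 0.49 and the protease gene Ctsd at -0.23.

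Of 16 inflammatory genes, 8 were lower and 3 higher, with a median of -0.20. The chemokine Cxcl2 fell by 1.58, Cxcl10 by 0.83, the NF-κB inhibitor Nfkbia by 0.77 and Tnfaip3 by 0.55 on the log2 scale. Of 14 immediate early genes, which respond within minutes to stimulation and to dissociation, 8 were lower and 3 higher, with Ier2 at -0.80 and Klf6 at 0.55. Of 8 heat shock genes, 4 were higher and 2 lower, with a median of 0.19. Dnaja1 was at 0.35 and Hsp90ab1 at 0.28, while Hspa1b was at -1.22 and Hspa1a at -0.85, and the summed level of the list was 8568 and 8345 CPM in WT and 9175 and 8806 CPM in the knockout. These counts depend on the scaling, as those over all genes do. With unscaled totals, 10 further homeostatic genes were lower and 1 higher, 9 inflammatory genes lower and 2 higher, and 10 immediate early genes lower and 3 higher. Regulators were then at 3 higher and 3 lower, disease-associated genes at 1 higher and 5 lower, and heat shock genes at 3 higher and 2 lower.

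Of the genes encoding ligands, Csf1 fell in microglia-like cells from 91.9 and 72.2 CPM to 57.3 and 47.7 CPM, a log2 difference of -0.56 (SE 0.12, adjusted p = 2.7e-04 by edgeR). In the Lama4 experiment it was at 71.6 and 64.0 CPM in WT and 54.7 CPM in Lama4-/-. Cx3cl1, which encodes the ligand of Cx3cr1, was at 80.0 and 77.8 CPM in endothelial-like cells of the Lama5 WT and 77.4 and 76.5 CPM in the knockout, with no test run in that class. Il34 was highest per UMI in pericyte-like cells, at 182 to 334 CPM, which held 38.7% of its UMIs in named classes. Smooth muscle-like cells, at 59.9 to 109 CPM, held 52.8%, and fibroblast-like cells ranged from 11.9 to 194 CPM. Tgfb1 was at 342 to 371 CPM in microglia-like cells of all libraries.

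In PVM-like cells of Tek-Cre:Lama5-/- mice, none of the 7 members that passed the filter on low counts changed by edgeR; 2 of them had an unadjusted p under 0.05, and DESeq2 gave 0 by either measure. All 7 were nonetheless below 0, with a median log2 difference of -0.32 against -0.01 over all genes tested. Precision was low: in simulated counts for these cells (2798 genes), 13.3% of changes of 0.5 on the log2 scale and 60.8% of changes of 1 were recovered. Of 3040 genes tested in these cells, 0.921% were called, 0.526% higher and 0.395% lower. Csf1r was at -0.33 (SE 0.13) and Fcrls at -0.32 (SE 0.14), with larger errors than in microglia-like cells, and Cx3cr1 was at -0.27 (SE 0.32). Without the second WT library, Cx3cr1 and Siglech were each at 0.69 instead. Whether the knockout difference itself differed between these cell types was tested by an interaction term: 10 of 8901 genes passed (0.112%; 0.0337% higher and 0.0786% lower in microglia) and none of the 7 members that passed the filter in PVM-like cells, of which 0 had an unadjusted p under 0.05 by edgeR or DESeq2. Errors of the difference were wide, as for Gpr34 at 0.38 (SE 0.30) and Selplg at 0.54 (SE 0.41). Tmem119 and Sall1 were too low in PVM-like cells for this comparison. In the same PVM-like cells the chemokine Ccl4 rose by 1.11 on the log2 scale, and the immediate early genes Btg2 and Egr1 fell by 1.15 and 0.98. Monocyte-like cells of this experiment, 2 to 12 per library, were too few for a test; Selplg was at 131 and 207 CPM in WT and 458 and 181 CPM in the knockout.

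For Lama4-/-, with 1 library, no test was run, and values are log2 ratios of scaled CPM against the mean of the 2 WT libraries. Tmem119 was at 0.21, Gpr34 at 0.20, Sall1 and Selplg at 0.12 and P2ry12 at 0.11, each above both WT libraries. Fcrls was at 0.01, Cx3cr1 at -0.001 and Siglech at -0.008, within the WT range, and Csf1r at -0.03, below it. The 5 genes above both WT libraries compare with 38.8% of 5561 genes that were above both, and 1 below with 41.5%; 80.3% of genes lay outside the WT range on either side. The count depends on the scaling: on unscaled CPM 8 of the 9 lay above both WT libraries, as did 49.5% of genes, none below (31.9% of genes), and Csf1r between them. No member reached a difference of 1 on the log2 scale against both WT libraries, which 0.162% of genes did. The median of the 9 was 0.11, against -0.004 over all genes, and that of the second over the first WT library was -0.01.

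In the same Lama4-/- library, 12 of 15 inflammatory genes lay below both WT libraries and 1 above, with Cxcl2 at -0.72, Nfkbiz and Il1a at -0.66 each and Ccl3 at -0.51. Apoe, a lipid carrier raised in disease-associated microglia, was at 0.41. The sub-cluster led by Ccl4 and Ccl3 held 29.0% and 31.2% of WT and 16.2% of Lama4-/- microglia-like cells, and within that sub-cluster, M3, the median of the 9 was 0.03. It was 0.065 in M1, 0.080 in M2, 0.19 in M8 and 0.086 in M9. M8, with a median of 1117 UMIs per cell, held 4.92% and 5.45% of WT and 10.4% of Lama4-/- microglia-like cells. M13, with the MHC class II genes Cd74 and H2-Ab1 among its leading genes, had 12 and 10 WT cells and 62 Lama4-/- cells. Summed choroid plexus markers in microglia-like cells were 170 and 128 CPM in WT and 1369 CPM in Lama4-/-; their part in the result was not tested.

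The WT groups of the 2 experiments also differed from each other. All 9 genes were lower in the Lama5 WT than in the Lama4 WT, with a median log2 difference of -0.43, where 25.2% of 11048 genes were lower, 27.3% higher and 52.5% differed in either direction. Selplg was lower by 0.78 (SE 0.04), Fcrls by 0.57, Gpr34 by 0.51 and Csf1r by 0.48, and Cx3cr1 by 0.20 (SE 0.03, adjusted p = 1.1e-05 by edgeR). With unscaled totals 7 of 9 passed, Siglech at -0.05 and Cx3cr1 at -0.01 no longer, and the split over all genes moved from 3014 higher and 2787 lower to 3878 and 1889. The heat shock gene Hspa1a was at 449 and 400 CPM in the Lama5 WT and at 6657 and 6739 CPM in the Lama4 WT, as 1 of several measures that moved with the groups. Median UMIs per microglia-like cell were 7244 and 7026 in the Lama4 WT and 3598 and 3311 in the Lama5 WT, mitochondrial UMIs 4.57% and 4.48% against 2.09% and 2.15%, and Gm42418 took 0.48% in both Lama4 WT libraries against 2.29% and 2.18%. The cells also lay in separate sub-clusters: 4 and 1 microglia-like cells of the Lama4 WT, and 8 and 10 of the Lama5 WT, were in sub-clusters made up mostly of the other experiment. The part of these measures in the result was not tested. Mouse pool, preparation and sequencing cannot be told apart here, so each knockout was compared only with its own WT.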

How the data were processed

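The authors deposited 1 matrix of unnormalized UMI counts for each sample, made with Cell Ranger on mm10 per the submitters' processing notes; the matrix headers name software 3.1.0. The notes also name Seurat 3.1, with no role. Barcode and gene lists (other values) were deposited by the authors beside each matrix. Cells were dissociated with papain, DNase and Liberase at 37 °C, per the labels' protocols.

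Cells with at least 500 genes and under 15% mitochondrial UMIs were kept, and 3015 likely doublets, ranked by similarity to simulated pairs, were removed. Clusters (igraph 0.11.9, Python 3.11.15) were named from markers without the 9 genes. A rule added after seeing the data left a cluster unnamed at a tie between types, or when some second types met 0.5 of their markers. Microglia markers in clusters of other macrophages or monocytes did not remove the name. PVM-like clusters M7, M10 and M14 met 6, 4 and 4 of the 8 microglia markers, and monocyte-like M12 met 4. UMIs were summed per class and library and tested with edgeR 4.0.16 (R 4.3.3; TMM scaling, filterByExpr, adjusted p under 0.05); DESeq2 1.42.0 was an alternative. Printed CPM are unscaled, while log2 differences, and Lama4-/- ratios (pseudocount 0.5 CPM), use TMM. Of genes in the lists, up to 4 per list were named: those with the largest difference that passed the test, at 20 CPM or more, with groups that did not overlap. In simulated counts for the Lama5 comparison in microglia-like cells (9309 genes), 86.9% of changes of 1 on the log2 scale and 45.0% of changes of 0.5 were recovered. Members and lists were chosen with earlier results of these data known.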

Additional observations from a re-analysis of the deposited data

Results flagged for a closer look

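On CPM scaled by TMM, 3 of the 9 genes in microglia-like cells lay above both WT libraries in Lama4-/- and below both WT libraries in both Tek-Cre:Lama5-/- libraries. On unscaled CPM 7 of the 9 did. Over all genes, 38.8% lay above in Lama4-/- and 26.6% below in Tek-Cre:Lama5-/- on scaled CPM, and 49.5% and 36.2% on unscaled CPM. The share of all genes that did both was not counted, so the pattern cannot be read as particular to the 9. Tmem119 was at 0.21 in Lama4-/- and at -0.19 in Tek-Cre:Lama5-/-, on the log2 scale against the WT of the same experiment. Sall1 was at 0.12 and -0.32, and Selplg at 0.12 and -0.29. The difference between the knockouts was not tested, since Lama4-/- is 1 library, and the knockouts come from separate experiments whose WT groups differ in the same genes.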

How the results depend on the processing

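In microglia-like cells of the Lama5 experiment, 7 of 9 genes were called lower in the main analysis, 5 with DESeq2 and 5 to 6 when 1 library was left out. Within sub-clusters, M4 gave 1, M5 gave 0 and M6 gave 0. Over all genes 1441 were called in the main analysis, 477 with DESeq2, 836 to 1083 with 1 library left out (836 without the first knockout library), and 109, 23 and 15 in M4, M5 and M6. The log2 difference of P2ry12 turned positive without the low-count filter (0.016), at clustering resolution 2 (0.0016), in M0 (0.0099), without the first WT library (0.016) and without the second knockout library (0.034), within a range of -0.037 to 0.034 when 1 library was left out. Gpr34 turned to -0.021 with unscaled totals, a setting chosen after seeing the data, and Fcrls to 0.0018 in M6. In PVM-like cells, Gpr34 was at 0.0071, Siglech at 0.69 and Cx3cr1 at 0.69 without the second WT library. Siglech was at 0.065 with doublets kept and 0.11 without the first knockout library, and Cx3cr1 at 0.00027 without the second knockout library. With 1 library left out, Gpr34 there ranged from -0.58 to 0.0071, Siglech from -0.58 to 0.69 and Cx3cr1 from -0.84 to 0.69. The causes were not tested.

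The Lama4-/- median of 0.11 was 0.15 with unscaled totals, 0.13 with stricter cell filters, and 0.065, 0.080, 0.028, 0.19 and 0.086 in sub-clusters M1, M2, M3, M8 and M9. In the comparisons of cell types, and of the WT groups except with unscaled totals, the count of members called was the same in every alternative run, while the median difference from monocyte-like cells moved from 3.99 to 5.29 with the 9 genes among the clustering genes. Same-numbered libraries did not deviate together (correlation 0.0131 in microglia-like cells of the Lama5 experiment). With the replicate number as a block, 7 members and 1507 genes were called there, 0 members in PVM-like cells and 9 between the WT groups. No test was run on monocyte-like cells of the Lama5 experiment, which had fewer than 20 cells in each library. No sub-cluster of PVM-like cells, and none shared by both WT groups, reached 50 cells in every library.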
